A study of Mus musculus with 6 samples.

Results

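Mitochondrial ribosomal proteins are the nuclear-encoded proteins of the ribosome that works inside mitochondria. Their genes were taken as all protein-coding mouse genes whose symbol is *Mrpl* or *Mrps* followed by a digit, which gave 78 of the 47069 genes counted in this series. Of these, 51 encode proteins of the large subunit, 26 encode proteins of the small subunit, and *Mrps36*, in spite of its symbol, encodes a subunit linked to the 2-oxoglutarate dehydrogenase complex of the citric acid cycle. RNA was sequenced from the inguinal subcutaneous white adipose tissue (SC-WAT) of 3 *Egr1*+/+ and 3 *Egr1*-/- female mice of 2 weeks of age on a C57BL/6 background (C57BL/6J in the study's methods), 1 library per mouse. *Egr1* encodes a zinc finger transcription factor, and the mutant allele carries a LacZ insertion in the 5′ untranslated region and a frameshift before the DNA-binding domain. The allele was carried in the germline, so every tissue of the *Egr1*-/- mice had it and not the fat pad alone. The mice came from heterozygous crosses in several litters, which the labels do not assign to the samples.

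The mitochondrial ribosome, or mitoribosome, translates the few messenger RNAs of the mitochondrial genome, all of which encode subunits of the respiratory chain and ATP synthase. Its 2 ribosomal RNAs are transcribed from mitochondrial DNA, whereas every protein is made in the cytosol and imported. Some of these proteins have homologues in bacteria, and others were added to the ribosome during the evolution of mitochondria. Brown and beige adipocytes, which burn fuel for heat, are rich in mitochondria, and the comparison of genotypes asks how the transcripts of this translation machinery stand in SC-WAT that lacks *Egr1*.

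The members lie on 17 chromosomes. Transcription factors of mitochondrial genes such as NRF1 and the ETS factor GABP act through short motifs close to the start site. RefSeq start sites on GRCm38.p6 were matched for 69 of the 78 members, with 75 windows of 250 bases before a start. The sequences of 5 members follow because the first 4 had the lowest p-values of all members, and the fifth carries both an NRF1 and an ETS motif. Each is printed 5′ to 3′ on the strand of the gene, ends before the annotated first exon, and has motif matches on either strand in capitals.
Mrpl34 (chr8:71464676-71464925, plus strand): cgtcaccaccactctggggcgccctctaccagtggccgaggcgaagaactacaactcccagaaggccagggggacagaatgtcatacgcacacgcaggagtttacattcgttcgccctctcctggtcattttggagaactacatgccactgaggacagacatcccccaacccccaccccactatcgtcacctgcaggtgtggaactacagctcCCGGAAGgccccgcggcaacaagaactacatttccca
Mrps6 (chr16:92058086-92058269, plus strand): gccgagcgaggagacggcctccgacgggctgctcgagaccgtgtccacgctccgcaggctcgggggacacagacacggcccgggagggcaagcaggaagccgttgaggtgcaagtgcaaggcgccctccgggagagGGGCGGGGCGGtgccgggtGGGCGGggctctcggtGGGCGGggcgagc
Mrps18b (chr17:35916441-35916690, minus strand): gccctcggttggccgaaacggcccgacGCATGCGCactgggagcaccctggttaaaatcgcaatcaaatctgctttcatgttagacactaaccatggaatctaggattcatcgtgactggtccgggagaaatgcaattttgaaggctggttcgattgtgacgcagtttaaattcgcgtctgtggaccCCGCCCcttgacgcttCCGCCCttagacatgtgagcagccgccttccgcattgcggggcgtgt
Mrpl37 (chr4:107066869-107067116, minus strand): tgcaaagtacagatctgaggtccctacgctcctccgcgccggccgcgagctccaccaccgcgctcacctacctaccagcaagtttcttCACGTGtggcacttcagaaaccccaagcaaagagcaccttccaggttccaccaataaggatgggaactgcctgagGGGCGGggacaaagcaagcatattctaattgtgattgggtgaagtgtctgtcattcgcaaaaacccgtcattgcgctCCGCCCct
Mrpl22 (chr11:58171414-58171660, plus strand): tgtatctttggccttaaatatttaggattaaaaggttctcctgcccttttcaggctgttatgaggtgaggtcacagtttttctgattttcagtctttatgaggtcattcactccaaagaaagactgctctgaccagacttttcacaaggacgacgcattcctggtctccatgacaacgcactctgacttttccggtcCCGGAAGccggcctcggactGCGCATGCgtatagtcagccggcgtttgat
In *Mrpl34* the capitals mark the ETS motif CCGGAAG. In *Mrps6* they mark 4 GC boxes, GGGCGG, the first 2 of which overlap by 1 base. In *Mrps18b* they mark the NRF1 motif GCATGCGC and 2 GC boxes, in *Mrpl37* an E-box, CACGTG, and 2 GC boxes, and in *Mrpl22* the ETS motif and then the NRF1 motif.

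Several of these motifs were more frequent before member genes than before mouse genes in general, as a count of matches and not of bound factors. The NRF1 motif GCATGCGC stood in 10.7% of the 75 member windows and in 2.26% of all 32851 windows. The ETS motif CCGGAAG stood in 24% against 6.91%, and the YY1 motif AAGATGGC in 5.33% against 1.56%. The GC box GGGCGG, read by SP1, stood in 49.3% against 32.7%, and the E-box CACGTG in 9.33% against 6.02%. Member windows were also richer in G and C, with a median of 58.4% against 52.4% for all windows, and the shares were not corrected for this. The EGR1 motif GCGTGGGCG was in none of the member windows and in 0.536% of all windows, while its variant GCGGGGGCG, which overlaps a GC box when a G follows it, was in 4% against 2.57%. The variant was found before *Mrpl39*, *Mrps7* and *Mrps24*. The median log2 fold change between genotypes was 0.20 for the 8 tested members with the NRF1 motif and 0.14 for the 60 without it, and 0.11 for the 17 with the ETS motif and 0.16 for the 51 without it.

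**Figure D1:**
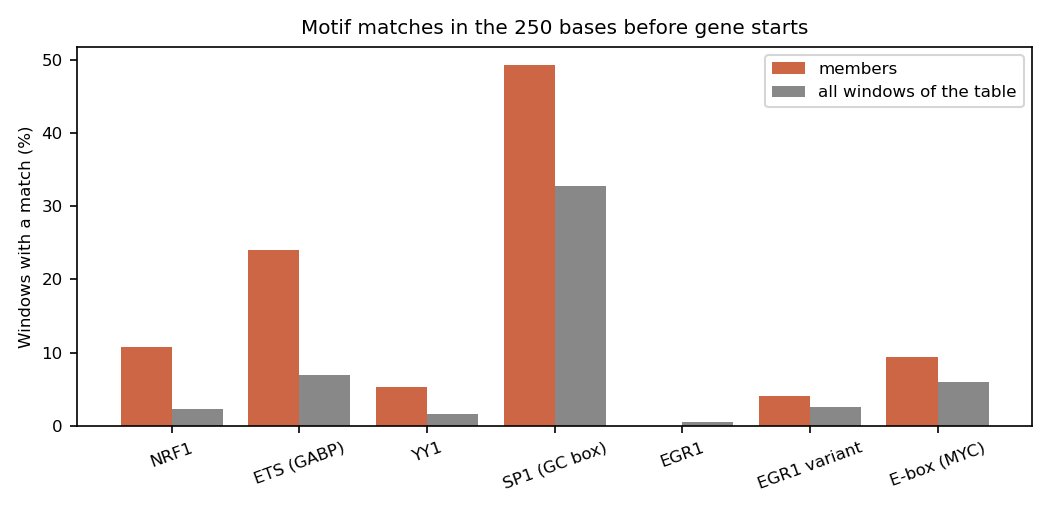
Percentage of windows of 250 bases before RefSeq start sites that hold each motif on either strand, for the 75 windows of 69 members (orange) and for all 32851 windows (grey). NRF1, ETS, YY1, SP1, E-box and EGR1 variant motifs had a larger share among members. The EGR1 motif was in none of the member windows and in 0.536% of all windows, too rare for 75 windows to show a lower share.

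Each library held between 29661984 and 42357981 counts in genes. Transcripts of the mitochondrial genome, which include ribosomal RNA left after depletion, took 50.0% to 57.4% of these in *Egr1*+/+ and 54.9% to 66.3% in *Egr1*-/- mice. Levels are given as CPM, a gene's count relative to the size of its library, with libraries scaled to each other by the trimmed mean of M-values (TMM). *Egr1* itself was at 10.3, 8.02 and 16.5 CPM in *Egr1*+/+ and at 3.09, 2.71 and 1.84 CPM in *Egr1*-/- mice. The groups did not overlap, and edgeR's quasi-likelihood fit gave a log2 fold change of -2.19 ± 0.30 (SE) with a Benjamini-Hochberg adjusted p of 0.0879. DESeq2 gave *Egr1* an adjusted p of 1.86e-10. Transcripts counted in *Egr1*-/- mice can come from the disrupted allele. Of the 78 members, 77 had enough counts to be tested, with between 55 and 2473 counts per mouse. *Mrpl53*, of the large subunit, had 1 count in 2 mice and 0 in the other 4, and 88% of its exon bases are shared on the same strand with the gene *Gm42688*.

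Most mitochondrial ribosomal protein transcripts stood slightly higher in *Egr1*-/- SC-WAT, and no single member passed the adjusted threshold. The log2 fold change was above 0 for 67 of the 77 tested members and below 0 for 10, against 50.1% above 0 of all 17667 genes tested. Averaged over the members, the second *Egr1*-/- mouse lay within the range of the *Egr1*+/+ mice. The members were measured in the same 6 mice, so they are not 77 separate observations of the genotype. Their median log2 fold change was 0.16, which is 11.5% higher, and ranged from -0.50 for *Mrps6* to 0.78 for *Mrpl34*, while the median of all genes was 0.00. The log2 fold change was smaller than 0.2 in size for 46 members, and the median SE of a member was 0.154. In bulk tissue a change in the number of cells of a type cannot be told apart from a change of RNA per cell.

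The direction depended on how the libraries were scaled. With scaling to total counts, which lets the mitochondrial genome's RNA set the scale, the median of all genes moved to -0.15, the members' median to 0.0011 and the large subunit's median to -0.01. Then 51.9% of members were above 0, against 29.5% of all genes. The members therefore kept their position above the median of all genes, and every log2 fold change here is relative to the bulk of genes and not per cell.

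Past the adjusted threshold of 0.05 were 0 of the 77 members, and 3 of all genes, which is 0.017%. DESeq2 called 0 members as well, with 2.05% of the genes it tested called, and its lowest adjusted p among members was 0.0906, for *Mrpl34*. At an unadjusted p under 0.05 in edgeR, 5 members were higher, which is 6.49% against 5.06% of all genes, and 1 was lower, which is 1.30% against 5.6%. All 3 *Egr1*-/- mice lay above all 3 *Egr1*+/+ mice for 10 members, 13.0% against 8.15% of all genes, and below them for 1, 1.30% against 8.1%. With 3 mice against 3, an exact permutation test cannot give a p below 0.1, and those 11 members had that p, two-sided.

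**Figure D2:**
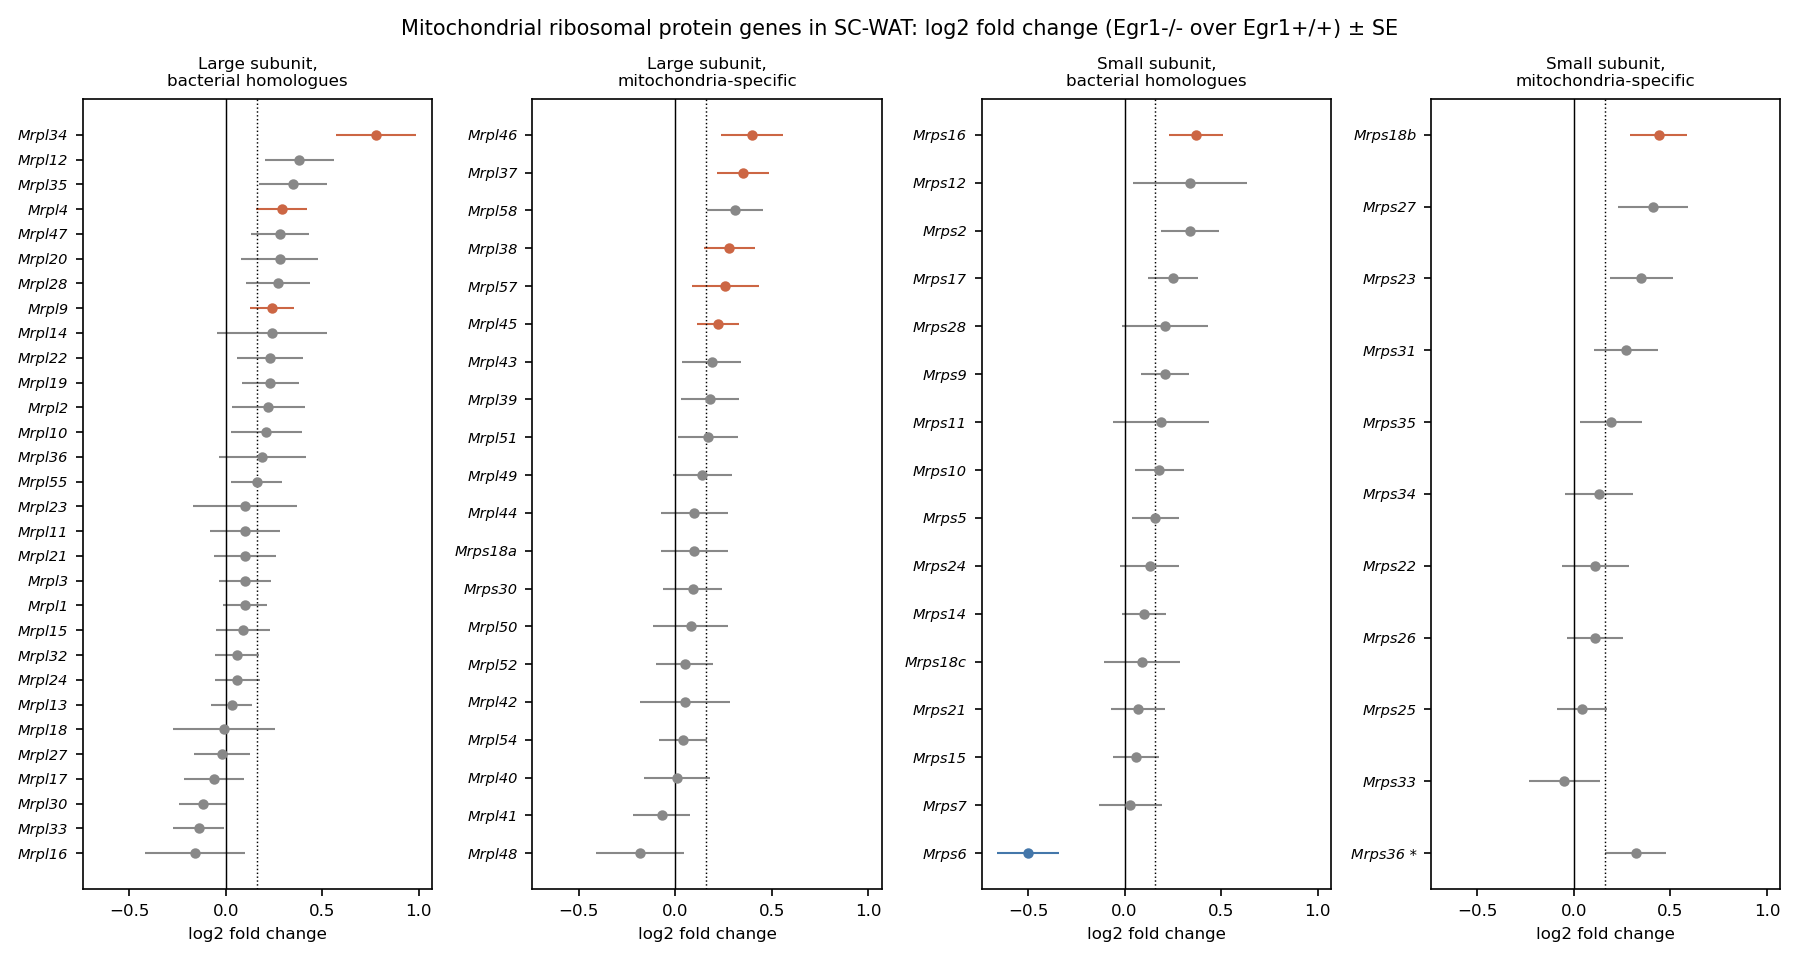
Log2 fold change (*Egr1*-/- over *Egr1*+/+, TMM scaling) with its SE for each of the 77 tested members, by subunit and by the presence of bacterial homologues. Orange and blue mark members whose groups did not overlap, higher or lower in *Egr1*-/-, the dotted line is the members' median of 0.16, and the asterisk marks *Mrps36*, which is not a ribosomal protein. Most points lie right of 0, and with total-count scaling the large subunit's median was -0.01.

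Among large subunit proteins with bacterial homologues, 24 of 30 had a log2 fold change above 0, with a median of 0.13. In 3 of the 30, or 10%, every *Egr1*-/- mouse lay above every *Egr1*+/+ mouse, which is near the 8.15% of all genes. *Mrpl34*, on chromosome 8 at 71464959 to 71465747 of GRCm38, encodes bL34m, a small basic protein buried in the large subunit's RNA. Its level was 2.85, 3.50 and 2.55 CPM in *Egr1*+/+ mice and 5.40, 4.16 and 5.69 CPM in *Egr1*-/- mice. Every *Egr1*-/- mouse was above every *Egr1*+/+ mouse, with means of 2.97 ± 0.482 and 5.09 ± 0.811 CPM (SD, n = 3). The log2 fold change was 0.78 ± 0.21 (SE), a fold of 1.72, with an adjusted p of 0.238 in edgeR. It was the only member whose unadjusted p stayed under 0.05 whichever mouse was left out, with log2 fold changes from 0.68 to 0.91. *Mrpl34* has a single ETS motif and no NRF1 motif in the window printed above.

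*Mrpl4* and *Mrpl9* were the other 2 proteins of this group without overlap. *Mrpl4*, a protein of the exit tunnel, was at 11.03, 11.8 and 9.998 CPM in *Egr1*+/+ and 14.4, 11.9 and 13.7 CPM in *Egr1*-/- mice, and the second *Egr1*-/- mouse lay just above the highest *Egr1*+/+ mouse. *Mrpl9* was at 27.0, 31.1 and 29.02 CPM against 32.6, 32.7 and 37.9 CPM. The log2 fold changes were 0.29 ± 0.13 for *Mrpl4* and 0.24 ± 0.11 for *Mrpl9*, with adjusted p-values of 0.481 and 0.494 in edgeR. *Mrpl12* encodes a protein of the stalk that recruits translation factors. It was at 9.02, 6.23 and 6.38 CPM against 9.61, 8.56 and 9.93 CPM, with a log2 fold change of 0.38 ± 0.18, and the first *Egr1*+/+ mouse lay within the range of the *Egr1*-/- mice.

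Of the 20 tested large subunit proteins particular to mitochondria, 18 had a log2 fold change above 0, with a median of 0.12. In 5, or 25% against 8.15% of all genes, the *Egr1*-/- mice all lay above the *Egr1*+/+ mice. These 5 were *Mrpl37*, *Mrpl38*, *Mrpl45*, *Mrpl46* and *Mrpl57*, and the difference from the group with bacterial homologues was not tested. *Mrpl37* was at 15.8, 12.2 and 12.6 CPM in *Egr1*+/+ and 16.1, 17.6 and 18.2 CPM in *Egr1*-/- mice. The first mice of both genotypes were nearly level, and the log2 fold change was 0.35 ± 0.13 with an adjusted p of 0.386 in edgeR. *Mrpl46* was at 6.03, 5.59 and 4.73 CPM against 7.53, 6.71 and 7.34 CPM, with a log2 fold change of 0.40 ± 0.16 and an adjusted p of 0.417. *Mrpl46* faces the small subunit gene *Mrps11* on the opposite strand, and 173 of their exon bases overlap. *Mrps11* had a log2 fold change of 0.19 ± 0.25, with overlapping groups. *Mrpl45*, the protein that anchors the ribosome to the inner membrane, was at 13.9, 13.5 and 14.1 CPM against 16.9, 15.2 and 16.2 CPM. Its log2 fold change of 0.22 ± 0.11 had an adjusted p of 0.522. *Mrpl38* was at 12.2, 11.9 and 11.5 CPM against 14.5, 12.4 and 16.2 CPM, and *Mrpl57* at 3.44, 4.00 and 4.27 CPM against 5.01, 4.42 and 4.62 CPM. Their log2 fold changes were 0.28 ± 0.13 and 0.26 ± 0.17. In both, the second *Egr1*-/- mouse was the lowest of its genotype and still above the *Egr1*+/+ mice.

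In the small subunit 24 of 26 members had a log2 fold change above 0, with a median of 0.17. The median was 0.17 for the 16 with bacterial homologues and 0.16 for the 10 without. In 2 of the 26, or 7.69%, every *Egr1*-/- mouse lay above every *Egr1*+/+ mouse, near the 8.15% of all genes. *Mrps18b*, also called mS40, was at 6.90, 7.72 and 7.93 CPM in *Egr1*+/+ and 9.04, 10.1 and 11.5 CPM in *Egr1*-/- mice. Its groups did not overlap, with a log2 fold change of 0.44 ± 0.15 and an adjusted p of 0.325 in edgeR. An antisense gene overlaps 30.5% of its exon bases. *Mrps16*, a homologue of a bacterial ribosomal protein, was at 8.53, 10.3 and 10.4 CPM against 12.3, 11.6 and 14.0 CPM, again without overlap. Its log2 fold change was 0.37 ± 0.14, with an adjusted p of 0.392. The next by p-value was *Mrps27*, particular to mitochondria, at 8.12, 6.96 and 5.36 CPM against 9.37, 9.72 and 8.02 CPM, and only the third *Egr1*-/- mouse was below an *Egr1*+/+ mouse. *Mrps2*, with a bacterial homologue, was at 17.8, 13.1 and 16.5 CPM against 20.8, 17.1 and 21.9 CPM. Their log2 fold changes were 0.41 ± 0.18 and 0.34 ± 0.15, and an *Egr1*-/- mouse lay within the *Egr1*+/+ range for each. *Mrps23* was at 11.8, 9.42 and 11.0 CPM against 13.3, 11.4 and 16.3 CPM, with a log2 fold change of 0.35 ± 0.16. Its lowest *Egr1*-/- mouse lay below the highest *Egr1*+/+ mouse. Apart from *Mrps6*, the one small subunit member below 0 was *Mrps33*, at -0.05 ± 0.18 with overlapping groups. The protein gene with the largest SE in the subunit, *Mrps12*, had a log2 fold change of 0.34 ± 0.29, from 2.33, 4.69 and 3.53 CPM against 4.77, 3.13 and 5.43 CPM.

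**Figure D3:**
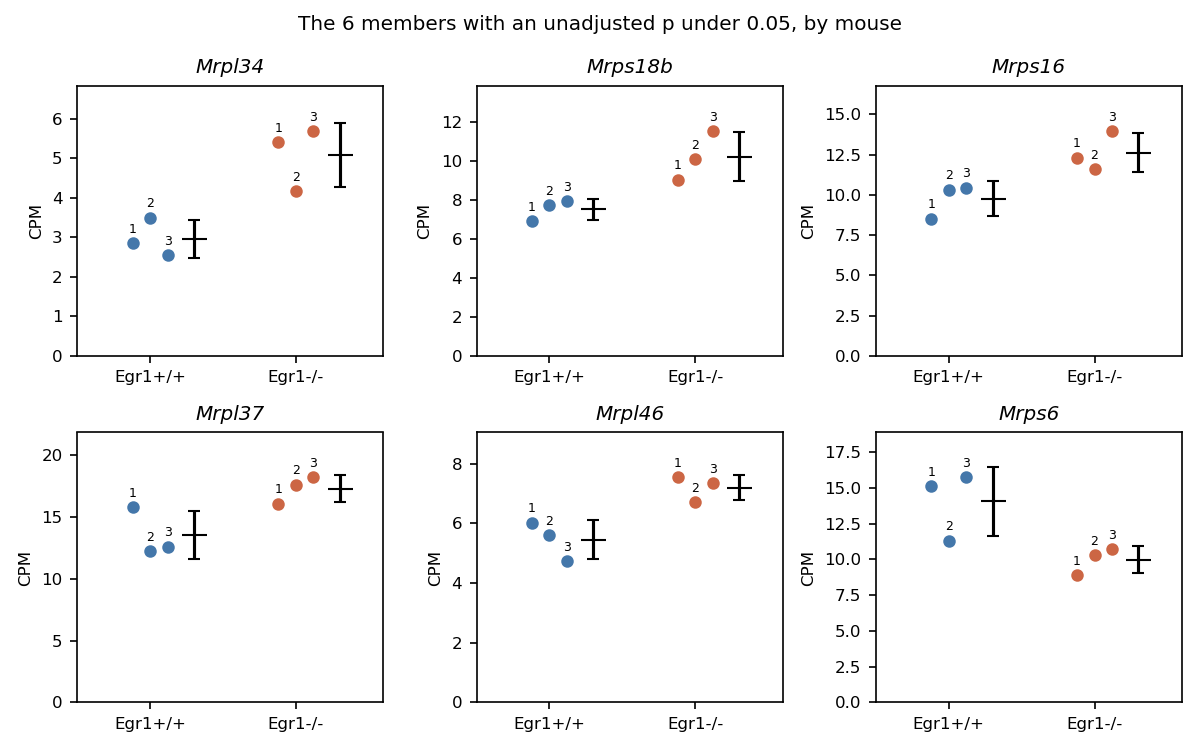
CPM (TMM-scaled) of the 6 members with an unadjusted p under 0.05 in each mouse, with numbers giving the replicate, the bar giving the mean and the whiskers the SD (n = 3). In each of these 6 panels the genotypes do not overlap, and *Mrps6* is the panel in which *Egr1*-/- is lower.

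*Mrps6*, a small subunit protein with a bacterial homologue on chromosome 16, went the other way. It was at 15.1, 11.3 and 15.7 CPM in *Egr1*+/+ and 8.92, 10.3 and 10.7 CPM in *Egr1*-/- mice. Every *Egr1*-/- mouse was below every *Egr1*+/+ mouse, with means of 14.1 ± 2.39 and 9.97 ± 0.937 CPM (SD, n = 3). The log2 fold change was -0.50 ± 0.16, with an adjusted p of 0.305 in edgeR. *Mrps6* and *Slc5a3*, which encodes a sodium-coupled inositol transporter, are read from the same strand with RefSeq starts 14 bases apart. They have 159 exon bases in common. *Gm49711*, another protein-coding gene on that strand, shares 305 exon bases with *Mrps6*, or 19.9% of those of *Mrps6*. *Slc5a3* was at 171, 159 and 290 CPM in *Egr1*+/+ and 112, 115 and 121 CPM in *Egr1*-/- mice, with a log2 fold change of -0.83 ± 0.22 and an adjusted p of 0.229 in edgeR and 0.00557 in DESeq2. *Mrps6* and *Slc5a3* were both lower in all 3 *Egr1*-/- mice, and reads in bases that genes have in common cannot be assigned to one of them. The 4 GC boxes printed above lie before the starts of *Mrps6* and *Slc5a3*.

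The other 4 members with the lowest log2 fold changes did not stand apart by genotype. They were *Mrpl48* at -0.18 ± 0.23, *Mrpl16* at -0.16 ± 0.26, *Mrpl33* at -0.14 ± 0.13 and *Mrpl30* at -0.12 ± 0.12. *Mrpl48* had 55.0, 75.1 and 56.6 CPM in *Egr1*+/+ and 74.2, 51.6 and 38.5 CPM in *Egr1*-/- mice. *Mrpl16* was at 26.46, 13.0 and 16.8 CPM against 14.7, 14.3 and 21.4 CPM, and *Mrpl33* at 11.0, 11.2 and 11.3 CPM against 9.85, 11.4 and 9.21 CPM. *Mrpl30* was at 40.7, 36.8 and 37.7 CPM against 40.0, 30.8 and 34.9 CPM.

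The 3 *Mrps18* paralogues show how members of one family can sit in different subunits. *Mrps18a* belongs to the large subunit, and *Mrps18b* and *Mrps18c* to the small subunit. Only *Mrps18b* was separated by genotype. *Mrps18a* was at 5.65, 7.72 and 6.19 CPM in *Egr1*+/+ and 6.18, 7.52 and 7.27 CPM in *Egr1*-/- mice, with a log2 fold change of 0.10 ± 0.17. *Mrps18c* was at 3.81, 5.43 and 4.04 CPM against 5.16, 4.29 and 4.66 CPM, a log2 fold change of 0.09 ± 0.20. The difference between paralogues was not tested. *Mrps36*, of the oxoglutarate dehydrogenase complex, was at 17.4, 15.0 and 16.8 CPM against 23.5, 15.9 and 22.1 CPM, with a log2 fold change of 0.32 ± 0.16. *Ogdh*, the catalytic subunit of that complex, was at 252, 221 and 190 CPM against 351, 302 and 453 CPM, and its log2 fold change of 0.74 ± 0.18 had an adjusted p of 0.220 in edgeR and 0.00271 in DESeq2.

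Levels per kilobase of merged exons differed far more between members than between genotypes, from 1.02 to 30.8 CPM per kb in *Egr1*+/+ mice around a median of 4.7. The highest were *Mrpl18* at 30.8, *Mrps21* at 26.8, *Mrpl55* at 18.0, *Mrpl54* at 17.3 and *Mrpl39* at 15.6 CPM per kb. The lowest were *Mrpl23* at 1.02, *Mrpl57* at 1.32 and *Mrps10* at 1.38 CPM per kb, and merged exons that include rarely used isoforms lower such values. Between genotypes the 5 highest members had log2 fold changes from -0.01 for *Mrpl18* to 0.18 for *Mrpl39*, and their groups overlapped. *Mrpl18* was at 58.9, 27.4 and 42.7 CPM in *Egr1*+/+ and 35.9, 37.3 and 54.8 CPM in *Egr1*-/- mice. *Mrps21* was at 20.2, 22.1 and 17.2 CPM against 23.1, 18.4 and 20.7 CPM, and *Mrpl55* at 19.1, 16.7 and 19.8 CPM against 21.3, 17.8 and 22.9 CPM. *Mrpl54* was at 15.8, 12.98 and 14.1 CPM against 15.8, 14.2 and 14.0 CPM, and *Mrpl39* at 44.6, 33.4 and 40.4 CPM against 43.9, 38.7 and 51.9 CPM. In none of these 5 did a genotype stand apart, and the log2 fold changes were smaller than the median SE of 0.154 except for *Mrpl39* and *Mrpl55*. Of the 3 lowest, *Mrpl23* was at 3.29, 7.06 and 4.57 CPM against 6.03, 4.58 and 5.30 CPM, and *Mrps10* at 12.4, 10.6 and 10.4 CPM against 12.04, 12.5 and 13.2 CPM. Their log2 fold changes were 0.10 ± 0.27 and 0.18 ± 0.13, again with overlap.

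Summed over the tested members, the level was 1241, 1108 and 1169 CPM in *Egr1*+/+ and 1296, 1138 and 1384 CPM in *Egr1*-/- mice. The second *Egr1*-/- mouse lay between *Egr1*+/+ mice by this sum too. The individual mice differed in how far the members stood above the rest. The mean over members of log2 CPM, as a deviation from the mean of the 6 mice, was -0.05, -0.11 and -0.07 for the *Egr1*+/+ mice, and for the *Egr1*-/- mice it was 0.11, -0.08 and 0.20. The second *Egr1*-/- mouse thus lay within the *Egr1*+/+ range, and was the lowest of its genotype for 58 of the 77 members. The third was the highest of all 6 mice for 39. Leaving out the third *Egr1*-/- mouse lowered the median log2 fold change of the members to 0.09, with 59 members above 0, and leaving out the second raised it to 0.23, with 71 above 0. Without the second, 34 members lay above all *Egr1*+/+ mice, 44.2% against 13.7% of all genes in that fit. Below them lay 2, 2.6% against 12.2%. At an unadjusted p under 0.05 in edgeR 15 were higher, 19.5% against 4.91%. The second mouse was lowest for most members, so leaving it out favours higher shares, and these are description and not support. Without the third, fewer members were higher at that p than with all 6 mice. In 46 members the log2 fold change stayed above 0 whichever mouse was left out, and in 3 it stayed below 0. These fits share most of their mice, and no share of all genes is given beside these counts.

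**Figure D4:**
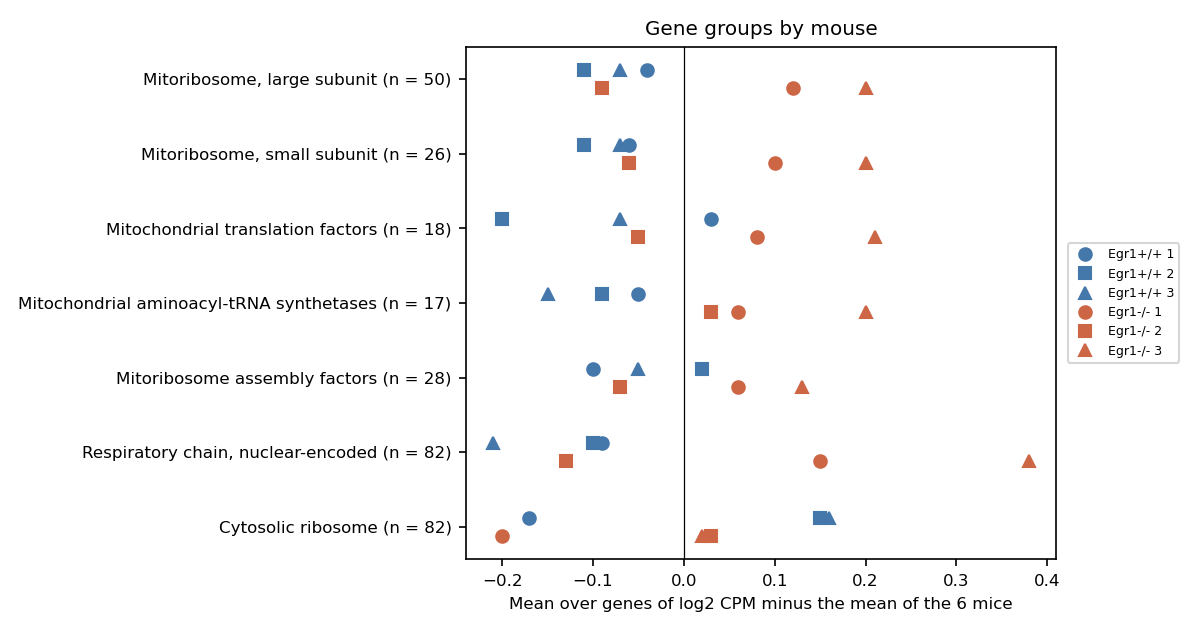
Mean over the genes of each group of log2 CPM minus the mean of the 6 mice, 1 point per mouse, with *Egr1*+/+ in blue, *Egr1*-/- in orange and the replicate number as the marker shape. For both mitoribosome subunits the first and the third *Egr1*-/- mouse each lie above the *Egr1*+/+ mice and the second does not. The cytosolic ribosome has overlapping genotypes.

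Other genes of mitochondrial translation had similar small log2 fold changes. All 17 mitochondrial aminoacyl-tRNA synthetases, which load amino acids onto transfer RNAs, were above 0, with a median of 0.15. In edgeR 3 of them, 17.6% against 5.06% of all genes, had an unadjusted p under 0.05, and in DESeq2 1 did, *Nars2*. *Nars2* was at 8.73, 10.3 and 9.001 CPM in *Egr1*+/+ and 11.6, 11.7 and 12.7 CPM in *Egr1*-/- mice, with a log2 fold change of 0.36 ± 0.13, and *Aars2* and *Tars2* had 0.43 ± 0.19 and 0.25 ± 0.11. Of 18 translation factors, 14 were above 0, with a median of 0.16. At an unadjusted p under 0.05 in edgeR 3 were higher, 16.7% against 5.06% of all genes, and in DESeq2 also 3. The ribosome recycling factor gene *Gfm2* was at 21.6, 23.04 and 20.8 CPM against 28.3, 28.1 and 28.8 CPM, with a log2 fold change of 0.38 ± 0.10 and an adjusted p of 0.242 in edgeR. *Tufm*, which brings aminoacyl-tRNA to the ribosome, and *Taco1*, which activates translation of a cytochrome oxidase subunit, had 0.36 ± 0.13 and 0.50 ± 0.20. The groups did not overlap for *Gfm2* and *Tufm*, and they overlapped for *Taco1*.

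Assembly factors of the mitoribosome stood closer to 0, with 19 of 28 above 0 and a median of 0.08, and none had an unadjusted p under 0.05. The log2 fold change was 0.31 ± 0.14 for *Noa1*, 0.32 ± 0.17 for *Fastkd2* and -0.41 ± 0.25 for *Trmt61b*, whose gene model is of the antisense type in the annotation. Of 5 mitoribosome proteins whose symbols do not begin with *Mrp*, 2 were above 0, *Ptcd3* at 0.22 ± 0.12 and *Dap3* at 0.19 ± 0.12. *Aurkaip1* was at -0.09 ± 0.11, *Chchd1* at -0.08 ± 0.17 and *Gadd45gip1* at -0.06 ± 0.16, each smaller in size than its SE.

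For transcription and maturation of mitochondrial RNA, 13 of 15 genes were above 0, with a median of 0.14. *Polrmt*, the mitochondrial RNA polymerase, was at 6.29, 6.19 and 6.22 CPM in *Egr1*+/+ and 9.16, 8.75 and 9.25 CPM in *Egr1*-/- mice. These groups did not overlap, with a log2 fold change of 0.54 ± 0.13 and an adjusted p of 0.227 in edgeR. *Hsd17b10*, a subunit of the mitochondrial RNase P, had 0.31 ± 0.12 and an unadjusted p under 0.05, *Lrpprc*, which stabilizes mitochondrial mRNAs, had 0.32 ± 0.15, and *Tfam*, which packages and transcribes mitochondrial DNA, -0.04 ± 0.11. The mitoribosome's own RNAs, *mt-Rnr1* and *mt-Rnr2*, had log2 fold changes of 0.38 ± 0.30 and 0.31 ± 0.31 with overlapping groups, in libraries from which ribosomal RNA had been depleted. The mRNAs that it translates, encoded by the mitochondrial genome, were above 0 for 10 of 11, with a median of 0.39 and a median SE of 0.31, and none was separated by genotype. The lowest p-values were those of *mt-Nd3*, *mt-Atp8* and *mt-Nd5*, with log2 fold changes of 0.46 ± 0.19, 0.49 ± 0.32 and 0.43 ± 0.28.

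**Figure D5:**
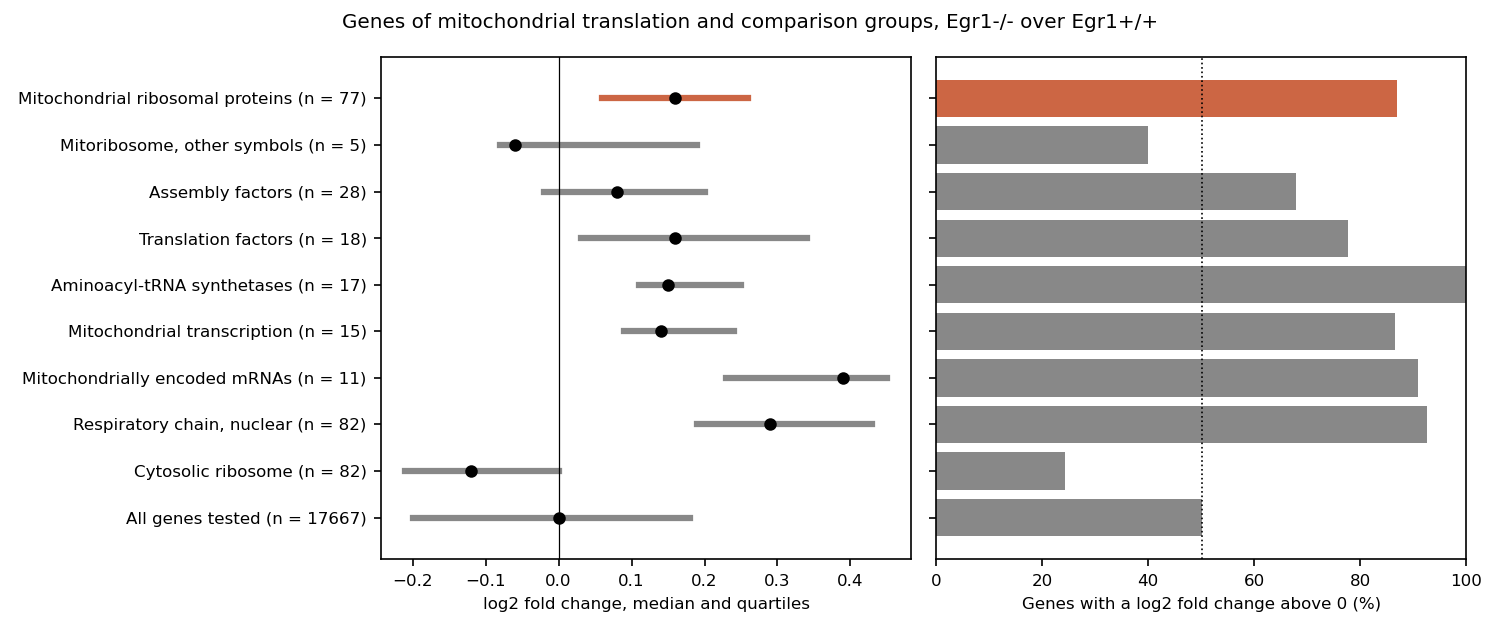
Left, median (point) and quartiles (bar) of the log2 fold changes (*Egr1*-/- over *Egr1*+/+, TMM scaling) in each gene group, and right, the percentage of genes above 0, with a dotted line at 50.1% for all genes tested. The members' median of 0.16 lies between that of the cytosolic ribosome, -0.12, and that of the nuclear-encoded respiratory chain, 0.29. With total-count scaling the members' median was 0.0011 and that of all genes -0.15.

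The cytosolic ribosome, which makes all other proteins, served as a comparison of the same size. Of its 82 tested proteins 20 were above 0, with a median of -0.12. At an unadjusted p under 0.05 in edgeR 4 of the 82 were lower, where 5.6% of all genes were. The 1 that was higher is 1.22%, against 5.06% of all genes. The lowest p-values were those of *Rpl22*, *Rpl37* and *Rps20*, with log2 fold changes of -0.43 ± 0.12, -0.38 ± 0.14 and -0.34 ± 0.14. Mean deviations were -0.17, 0.15 and 0.16 in *Egr1*+/+ and -0.20, 0.03 and 0.02 in *Egr1*-/- mice, so these genotypes overlapped. Of 82 nuclear-encoded respiratory chain subunits, the partners of the mitoribosome's products, 76 were above 0, with a median of 0.29, and 27 were higher and 1 lower at an unadjusted p under 0.05, the higher ones being 32.9% against 5.06% of all genes. Their mean deviations were -0.09, -0.10 and -0.21 against 0.15, -0.13 and 0.38, and the second *Egr1*-/- mouse again lay within the *Egr1*+/+ range. *Cox5a* and *Cox8b* had log2 fold changes of 0.80 ± 0.17 and 0.76 ± 0.16, both past DESeq2's adjusted threshold and not edgeR's, and *Cox4i2*, an isoform described in lung, one of -1.10 ± 0.28. The differences between these groups of genes were not tested.

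Among genes known to act on mitochondrial gene expression, the coactivators *Ppargc1a* and *Ppargc1b* had the largest log2 fold changes of the 10 tested. *Ppargc1a* was at 32.1, 19.9 and 36.4 CPM in *Egr1*+/+ and 58.7, 48.4 and 79.7 CPM in *Egr1*-/- mice, with a log2 fold change of 1.08 ± 0.24 with an adjusted p of 0.193 in edgeR. *Ppargc1b* was at 14.4, 10.6 and 11.7 CPM against 21.9, 20.1 and 27.2 CPM, a log2 fold change of 0.92 ± 0.16 with an adjusted p of 0.155. Both passed DESeq2's adjusted threshold and not edgeR's. *Esrra*, a nuclear receptor that works with them, had 0.36 ± 0.14. *Nrf1* was at -0.03 ± 0.12, *Gabpa* at 0.16 ± 0.12 and *Yy1* at 0.07 ± 0.11, and their groups overlapped.

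Markers of some of the other cell types in the pads differed between genotypes and those of others overlapped, and their part in the members' values was not tested. Of 11 beige and brown markers 9 were tested, and all 9 were above 0, with a summed level of 531 to 682 CPM in *Egr1*+/+ and 933 to 1554 CPM in *Egr1*-/- mice. *Ucp1*, the uncoupling protein of thermogenic fat, was at 400, 316 and 305 CPM against 858, 571 and 949 CPM. The second *Egr1*-/- mouse was the lowest of its genotype for *Ucp1* and still above every *Egr1*+/+ mouse, while its members' mean lay within the *Egr1*+/+ range. A relation between *Ucp1* and the members was not tested. Of 10 stromal progenitor markers 0 were above 0, with sums of 4374 to 5146 against 2614 to 3620 CPM, and of 6 macrophage markers 0 were above 0, with sums of 284 to 365 against 215 to 252 CPM. Adipocyte markers, which mark the tissue itself, summed to 7152 to 8006 against 5643 to 6571 CPM, with 2 of 9 above 0. The 15 skeletal muscle markers, of a tissue also rich in mitochondria, summed to 2259, 6176 and 577 CPM in *Egr1*+/+ mice. In *Egr1*-/- mice they summed to 347, 1080 and 6482 CPM, and their relation to the members' levels was not tested. Lymphocyte markers summed to 99.8 to 115 against 78.0 to 211 CPM, with 8 of 8 above 0, and Schwann cell and erythroid markers had 0 of 5 and 1 of 6 above 0. Endothelial and mammary epithelial markers had 4 of 6 and 5 of 7 above 0.

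Members whose reads could be confused with those of other genes were set apart, a split chosen after the data were seen. Exons of 33 members overlap those of another gene, on the same strand for 8, and 19 members have a processed pseudogene of at least 95% identity over at least 200 bases. Of the 33 tested members with neither, 31 were above 0, with a median of 0.21. Of the 44 others, 36 were above 0, with a median of 0.12. Of the 10 members that were higher without overlap between genotypes, 6 were among the 33, where 8.15% of all genes were higher in this way. The difference between these sets of members was not tested.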

How the data were processed

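Inguinal fat pads of 6 mice were sequenced from rRNA-depleted RNA. The authors mapped the reads to GRCm38 with TopHat2 and Bowtie2, guided by the GENCODE M8 annotation, and deposited raw read counts per gene from featureCounts without normalization, and the strand and multimapping settings are not given in the sources used here. Genotypes came from the sample labels. Identifiers without version were matched to GENCODE M21 (46574 of 47069), which gave symbols, coordinates and exon overlaps.

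The analysis used R 4.3.3 and edgeR 4.0.16 (TMM, filterByExpr, quasi-likelihood test without covariates, Benjamini-Hochberg adjustment over all genes tested, threshold 0.05). SE was derived from the fold change and its F statistic. Log2 CPM for the deviations of mice used a prior count of 2. DESeq2 1.42.0, limma 3.58.1, other scalings and filters, a replicate block and leaving out each mouse were alternatives. The fits were tested on simulated data. Pseudogene copies were found with blastn 2.17.0. Promoter sequences and starts were RefSeq's on GRCm38.p6, and *Mrpl4*, *Mrpl13*, *Mrpl15*, *Mrpl19*, *Mrpl38*, *Mrpl54*, *Mrps28*, *Mrps34* and *Mrps35* had no entry. At this depth tested members had a median of 434 counts per mouse.

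Members shown by mouse were the 10 with the lowest p, the 5 with the lowest log2 fold change, the 5 highest and 3 lowest per kb, the *Mrps18* genes, *Mrps36*, *Mrpl12*, *Mrps6* and any not tested. From other lists the 3 lowest p-values were taken, and marker lists are given by counts and summed levels, with *Ucp1* as an example. *Slc5a3*, *Ogdh*, *Mrps11*, *Mrpl9*, *Mrpl38*, *Mrpl45*, *Mrps12*, *Mrps33*, *Tfam*, *Nrf1*, *Gabpa* and *Yy1* were added after their values were seen. The members, lists and motifs were chosen with earlier results of these data known. The labels name separate mice.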

Additional observations from a re-analysis of the deposited data

How the results depend on the processing

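With 3 mice per genotype, 0 members passed the adjusted threshold in edgeR, DESeq2, limma-voom and every other setting run. Genes called over all genes were 3 as reported, 0 with a filter of CPM over 1 in every mouse, with upper-quartile scaling and with a replicate block, 1 with limma-voom, 79 with total-count scaling, 334 with DESeq2 and 552 with no filter, and 0 to 59 with 1 mouse left out, the 59 being without the first *Egr1*-/- mouse. Members higher at an unadjusted p under 0.05 were 5 as reported, 11 with no filter, 11 with the replicate block, 1 with total-count scaling, and 2 (without the third *Egr1*-/- mouse) to 15 (without the second) with 1 mouse left out, and 3 without the third *Egr1*+/+ and 8 without the first *Egr1*+/+ mouse. Members lower were 1 as reported and 0 (without the third *Egr1*+/+ mouse) to 2 (without the first *Egr1*-/- mouse). Members without overlap were 11 as reported, 3 with total-count scaling, and 12 to 36 with 1 mouse left out, 36 without the second *Egr1*-/- and 20 without the first *Egr1*+/+ mouse. Fewer mice make separation easier. Of all genes, 8.15% were higher without overlap as reported, and 13.7% without the second *Egr1*-/- mouse. Lower without overlap were 8.1% and 12.2%. Higher at an unadjusted p under 0.05 in edgeR were 5.06% and 4.91%. Such shares are not given for the other settings, so the members' counts there cannot be compared with all genes.

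With total-count scaling, which moved the median of all genes to -0.15, the medians became 0.0011 for the members, -0.01 for the large subunit and 0.02 for the small subunit, and 40 members were above 0. With 1 mouse left out the large subunit's median ran from 0.07 to 0.23, the members' from 0.09 to 0.23 and the small subunit's from 0.11 to 0.20. Without members that overlap other exons or have pseudogene copies, an alternative chosen after seeing the data, the median was 0.21. Of 26 single members examined, 18 kept their sign in every setting and 8 did not, none of which had an adjusted p under 0.05 in any setting. Of these 8, *Mrpl48* had an unadjusted p of 0.0394 without the first *Egr1*-/- mouse, with a log2 fold change of -0.47. With total-count scaling the log2 fold change was -0.03 for *Mrps18a*, -0.06 for *Mrps18c*, -0.08 for *Mrps21*, -0.12 for *Mrpl54* and -0.06 for *Mrpl23*, and that of *Mrpl18* was 0.03 with limma-voom and 0.03 with the replicate block. With 1 mouse left out it ran from -0.25 to 0.27 for *Mrpl18*, -0.01 to 0.24 for *Mrps18a*, -0.02 to 0.26 for *Mrps18c*, -0.03 to 0.15 for *Mrps21*, -0.02 to 0.10 for *Mrpl54*, -0.14 to 0.43 for *Mrpl23*, -0.37 to 0.16 for *Mrpl16* and -0.47 to 0.02 for *Mrpl48*.

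The replicate numbers were not taken as pairs, since the labels do not say that they pair the mice. Same-numbered mice had correlations of deviations of -0.0888, 0.106 and -0.126 over 17667 genes. Such values cannot show whether mice were paired, and the fit with the replicate block is therefore only an alternative. The cause of the changes was not tested.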

Other observations

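Processed pseudogenes of mitochondrial ribosomal protein genes drew few counts. Of 26 copies of 19 members, 21 were counted, and none had more than 10% of the counts of its member. *Gm13328*, a copy of *Mrps5* of 98.4% identity, had 51, 28 and 58 counts in *Egr1*+/+ and 32, 27 and 61 counts in *Egr1*-/- mice, 6.99% of those of *Mrps5*. *Mrpl48-ps* had 171, 76 and 90 against 131, 44 and 82 counts, 5.02% of those of *Mrpl48*. *Gm13552*, which is 99.8% identical to *Mrps18b*, had 0 counts in all 6 mice. *Nme3*, a nucleoside diphosphate kinase gene that shares 763 exon bases on the same strand with *Mrps34*, also had 0 counts in all 6 mice, and reads in the common bases cannot be assigned to one of these genes.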
